A study of Mus musculus with 13 samples.

Results

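The insulin-like growth factor (IGF) axis was described in mammary glands of mice with a conditional knockout of Jak1 and of wildtype controls. It was taken as 10 genes, chosen by symbol: the binding protein genes Igfbp2, Igfbp3, Igfbp4, Igfbp5, Igfbp6 and Igfbp7, the ligand genes Igf1 and Igf2, and the receptor genes Igf1r and Igf2r. All 10 were found among the 23951 gene symbols of each of the 2 expression tables. JAK1 is a tyrosine kinase that passes on signals of many cytokine receptors, and the study asked what it contributes to cytokine signalling and to the remodelling of the gland.

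RNA of whole, flash-frozen glands was sequenced in 13 libraries of 4 groups. The knockout (KO) glands at day 2 of involution, the regression that follows weaning, were M43196, M43767, M44176 and M44440, each named by its mouse number. The wildtype control (Con) glands at day 2 of involution were M44448, M43768 and M43914. At day 7 of lactation the KO glands were M44174, M42734 and M43767, and the Con glands were M42186, M43768 and M44175. The titles carry 11 different mouse numbers, since the number of 1 KO mouse and of 1 Con mouse stands at both stages. The sources used here do not give the strain, the age, the promoter that drives Cre or whether controls carry Cre.

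IGF-1 and IGF-2 are secreted peptides that promote growth and survival of cells through the receptor tyrosine kinase IGF1R, whereas IGF2R carries IGF-2 and lysosomal enzymes to lysosomes. The binding proteins hold the IGFs in extracellular fluid and either withhold them from the receptor or deliver them. In the rodent mammary gland IGFs are survival signals for the secretory epithelium, and IGFBP-5, which binds IGF-1 with high affinity, is known for its abundance in milk at involution and for its dependence on STAT3, a target of JAK1.

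Levels are FPKM, a unit of fragments per transcript length and library size, printed as deposited. How library size was set is not given. Errors beside FPKM are standard deviations over libraries. Differences are KO minus Con on the scale log2(rescaled FPKM + 1), with the standard error, which understates the change of genes with low FPKM. They come from limma fits over all genes that reached 1 FPKM in 3 or more libraries, and a gene was called where the adjusted p (Benjamini-Hochberg, over all genes tested) was under 0.05. Each stage has a table of its own, and the sources used here do not say whether both were scaled alike. The upper quartile of FPKM lay between 8.61 and 9.07 in the involution libraries and between 3.06 and 3.21 in the lactation libraries, so levels of the stages are set side by side without a test. Relative depth, with the mean of the stage's table set to 1 and read from the steps of low values, ran from 0.485 (KO M43196) to 1.49999 (KO M44440) at involution and from 0.723 (Con M44175) to 1.28 (KO M44174) at lactation. Con M44175 also stood apart with summed FPKM of 871630 over all genes, against 312976 to 421592 in the other 5 lactation libraries. At involution KO M43196 had the highest sum, 1367558, against 590437 to 958496 in the other involution libraries. The 5 markers of luminal epithelium (Krt8, Krt18, Krt19, Epcam and Elf5) were present in all libraries, with sums between 464 and 2162 FPKM. At lactation Elf5 made up the largest part, with means of 316 FPKM in KO and 373 FPKM in Con glands. Skeletal muscle markers (Ckm, Acta1, Myh4 and Mylpf) summed to 3344 FPKM in KO M44176, 849 FPKM in Con M44448 and 680 FPKM in KO M44174, and to at most 388 FPKM elsewhere. Skin keratinocyte markers summed to 136 FPKM in KO M43767 at involution and to at most 3.64 FPKM elsewhere. Jak1 itself, measured over all cells of the gland, lay between 17.3 and 26.3 FPKM in KO and between 23.97 and 24.6 FPKM in Con glands at involution. At lactation it lay between 9.51 and 11.2 FPKM in KO and between 6.18 and 14.2 FPKM in Con glands, so it does not check the deletion.

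No IGF axis gene was called in any comparison by limma. At involution 0 of 10 were called, where 0.0719% of all 12509 genes tested were. Unadjusted p values were under 0.05 for 2 genes, Igfbp5 and Igfbp7, against 6.84% of all genes. The log2 differences were positive for 6 genes and negative for 4, with a median of 0.29 against 0.01 over all genes. At lactation 0 of the 8 genes tested were called, where 0.0105% of all 9560 genes were, and 1 gene, Igf1, had an unadjusted p under 0.05, against 2.38% of all genes. Igf2 and Igf1r had too low FPKM to be tested at lactation, with 0.179 to 0.507 FPKM and 0.0552 to 0.324 FPKM over the 6 libraries. The log2 differences were positive for 7 genes and negative for 1, with a median of 0.25 against 0.01 over all genes. At involution the KO and Con libraries of 1 gene, Igfbp5, did not overlap, and this held for 7.09% of all genes. No IGF axis gene had all KO glands above all Con glands, against 2.67% of all genes. At lactation 3 of the 8 genes did not overlap, Igfbp4 and Igfbp7 with KO above and Igf1 with KO below, against 6.06% of all genes. In whole glands, fewer cells of a type and less RNA per cell cannot be told apart.

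**Figure D1:**
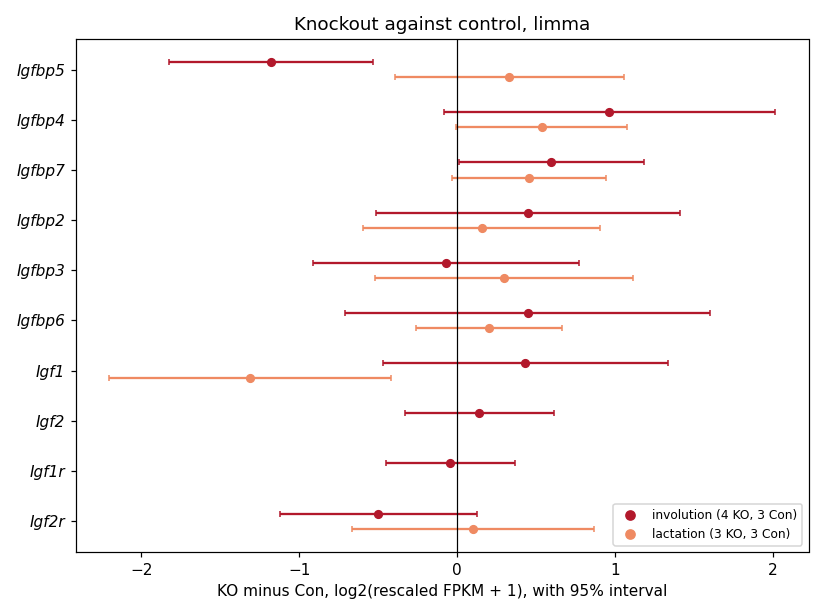
Difference of log2(rescaled FPKM + 1), KO minus Con, for the IGF axis genes at involution and at lactation, with 95% confidence intervals. At involution Igfbp5 has the lowest value, -1.18, and at lactation Igf1 has the lowest, -1.31. No difference had an adjusted p under 0.05 (limma).

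By mean FPKM at involution the order in KO glands was Igfbp5 (367), Igfbp7 (153), Igfbp4 (104), Igfbp6 (26.8), Igf2r (12.5), Igfbp2 (8.004), Igf1 (7.62) and Igfbp3 (3.48), with Igf1r and Igf2 lowest. In Con glands it was Igfbp5 (829.4), Igfbp7 (103), Igfbp4 (56.4), Igfbp6 (19.3), Igf2r (19.1), Igf1 (5.25), Igfbp2 (4.89) and Igfbp3 (4.07), again with Igf1r and Igf2 lowest. In both groups Igfbp5 lay above all others in every gland, whereas the ranges of Igfbp7 and Igfbp4, of Igfbp6 and Igf2r, and of Igf1, Igfbp2 and Igfbp3 overlapped. At lactation Igfbp7 was highest in both groups, with means of 39.6 FPKM in KO and 29.9 FPKM in Con glands. Igfbp4 (11.5 FPKM) came next in KO glands and Igf1 (8.97 FPKM), overlapping Igfbp4 (8.04 FPKM), in Con glands. Igf1 (2.93 FPKM) had the lowest mean of the 8 genes tested in KO glands.

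Igfbp5 was the most abundant gene of the axis at involution. It had 509, 385, 265 and 307 FPKM in the KO glands, against 929, 901 and 658 FPKM in the Con glands. Every KO gland at involution lay below every Con gland, as did the KO glands for 4.42% of all genes tested. The means were 367 ± 107 FPKM in 4 KO glands and 829.4 ± 149 FPKM in 3 Con glands. The difference was -1.18 ± 0.28 on the log2 scale (95% confidence interval -1.82 to -0.53), with a limma adjusted p of 0.380. As a ratio of rescaled FPKM + 1 it was 0.442 (0.283 to 0.691). By unadjusted p Igfbp5 ranked 97 of 12509 genes. With each library left out in turn, the difference stayed between -1.35 and -1.04.

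At lactation Igfbp5 was low in all glands. It had 5.85, 3.95 and 4.31 FPKM in the KO glands, against 4.58, 4.81 and 2.07 FPKM in the Con glands. The groups overlapped, and the lowest value belonged to Con M44175. The difference was 0.33 ± 0.31 on the log2 scale (95% confidence interval -0.40 to 1.06, limma adjusted p = 0.998), and -0.00 without Con M44175. The ratio of the mean FPKM at involution to that at lactation was 77.9 in KO glands and 217 in Con glands, across tables that may differ in scale. The difference of the KO effect between the stages, involution minus lactation, was -1.51 ± 0.43 on the log2 scale (95% confidence interval -2.45 to -0.57). Its limma adjusted p was 0.999, and it ranked 51 of 12667 genes by unadjusted p. Of all genes 0.0789% were called in that comparison, and 0 of the 10 IGF axis genes. Igfbp5 and Igf1 were the 2 members with an unadjusted p under 0.05 there, against 3.35% of all genes.

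The 250 bases before the start of Igfbp5 are shown because it had the largest level and the largest shift at involution of the binding proteins. They are chr1:72874866-72875115, minus strand, from RefSeq (GRCm38.p6), a different build than that of the tables, and capitals mark the match to the AP-2 motif GCCNNNGGC.
Igfbp5: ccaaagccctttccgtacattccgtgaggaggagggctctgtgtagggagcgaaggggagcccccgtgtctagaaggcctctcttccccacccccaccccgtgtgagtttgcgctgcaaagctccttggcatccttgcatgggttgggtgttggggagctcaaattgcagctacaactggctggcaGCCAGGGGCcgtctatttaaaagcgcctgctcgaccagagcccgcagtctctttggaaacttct
The match lies 64 bases before the start. The motif, searched on both strands, was present in 13.7% of all 32851 promoter windows of this length. The STAT motif TTCNNNGAA was in 0 of the 14 windows of the IGF axis genes and in 7.02% of all windows, and the C/EBP motif TTGCNNAA was in 0 of the 14 and in 9.56% of all, both on either strand. Windows were found for all 10 genes, and a match is a run of letters, not a measured site.

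**Figure D2:**
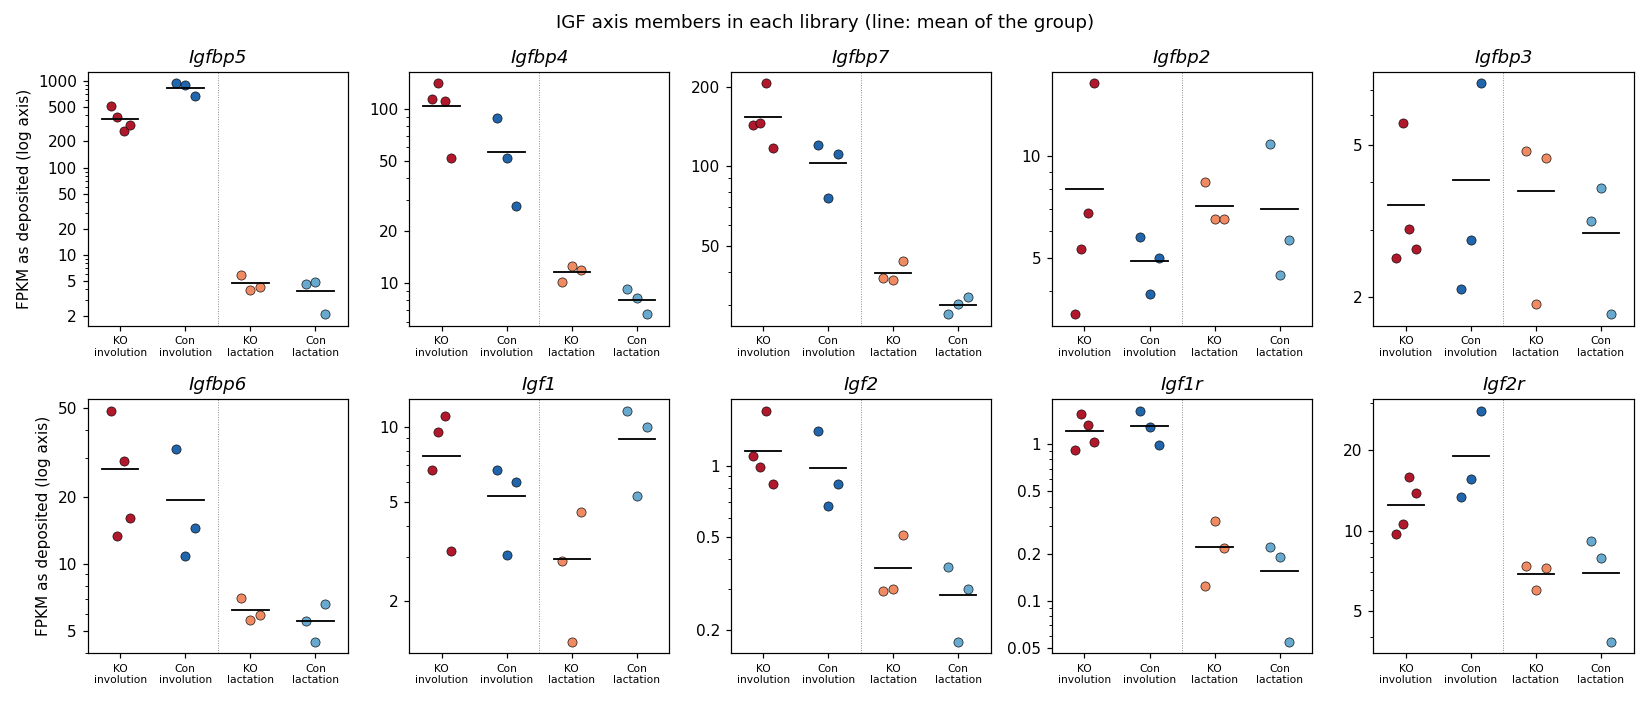
FPKM of each IGF axis gene in every library on a log axis, by group. Points are libraries and bars are group means. The KO points of Igfbp5 at involution, 265 to 509 FPKM, lie below the Con points, 658 to 929 FPKM.

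Igfbp4, whose product binds IGFs and mostly holds them back from the receptor, was at involution 113, 140, 111 and 52.3 FPKM in KO glands, against 89.0, 52.4 and 27.7 FPKM in Con glands. The 3 highest values were KO glands, and KO M44440 lay just below Con M43768. The difference was 0.96 ± 0.46 on the log2 scale (95% confidence interval -0.09 to 2.01, limma adjusted p = 0.790), and 0.53 without Con M43914. At lactation Igfbp4 had 10.1, 12.6 and 11.9 FPKM in KO glands, against 9.29, 8.20 and 6.63 FPKM in Con glands. All 3 KO glands lay above all 3 Con glands, as they did for 2.89% of all genes tested. The difference was 0.54 ± 0.23 on the log2 scale (95% confidence interval -0.00 to 1.08, limma adjusted p = 0.998), and 0.37 without Con M44175. The promoter window of Igfbp4 is shown because it was the 1 IGF axis window with the exact TATA box letters TATAAA on the strand of the gene, in capitals. It is chr11:99040994-99041243, plus strand, from RefSeq (GRCm38.p6).
Igfbp4: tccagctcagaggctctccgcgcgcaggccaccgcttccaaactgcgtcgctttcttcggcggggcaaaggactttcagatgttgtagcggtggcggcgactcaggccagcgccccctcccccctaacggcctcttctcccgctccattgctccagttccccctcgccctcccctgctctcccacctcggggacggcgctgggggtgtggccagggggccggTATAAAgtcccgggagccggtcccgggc
The match lies 28 bases before the start, and 7.59% of all windows held those letters. Other forms of the TATA box were not searched.

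Igfbp7, a secreted protein with a low affinity for IGFs that is common in blood vessel walls, was at involution 144, 146, 206 and 117 FPKM in KO glands, against 121, 75.6 and 111 FPKM in Con glands. KO M44440 and Con M44448 overlapped, and the other KO glands lay above all Con glands. The difference was 0.60 ± 0.25 on the log2 scale (95% confidence interval 0.01 to 1.18, limma adjusted p = 0.727), and 0.39 without Con M43768. At lactation Igfbp7 had 37.9, 37.1 and 43.7 FPKM in KO glands, against 27.6, 30.1 and 32.1 FPKM in Con glands. At this stage all KO glands lay above all Con glands, and the difference was 0.46 ± 0.21 on the log2 scale (95% confidence interval -0.03 to 0.94, limma adjusted p = 0.998). RefSeq places Polr2b over the same genomic stretch as Igfbp7, and the sources used here do not say whether fragments were counted by strand. The promoter window of Igfbp7 is shown beside that of Igfbp5 because their KO and Con levels stood in opposite order at involution. It is chr5:77408046-77408295, minus strand, from RefSeq (GRCm38.p6), and none of the motifs searched matched.
Igfbp7: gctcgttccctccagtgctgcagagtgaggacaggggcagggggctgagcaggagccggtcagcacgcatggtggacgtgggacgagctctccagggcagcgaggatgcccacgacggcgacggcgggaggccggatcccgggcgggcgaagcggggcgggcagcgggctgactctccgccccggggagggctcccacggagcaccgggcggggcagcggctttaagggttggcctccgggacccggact

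The levels of Igfbp4 and Igfbp7 stood beside differences in the markers of other cells. The summed FPKM of 5 fibroblast markers (Pdgfra, Col1a1, Col3a1, Dcn and Lum) ran from 242 to 677 in KO and from 144 to 332 in Con glands at involution, and all 5 had positive differences. At lactation the fibroblast sums ran from 110 to 124 FPKM in KO and from 38.8 to 112 FPKM in Con glands. The sums of 5 endothelial markers (Pecam1, Cdh5, Kdr, Tek and Emcn) ran from 25.9 to 36.0 FPKM in KO and from 14.9 to 20.7 FPKM in Con glands at lactation. Each of the 5 was higher in every KO gland, against 2.89% of all genes tested. At involution they overlapped, from 66.97 to 138 FPKM in KO and from 71.8 to 106 FPKM in Con glands. The 5 adipocyte markers (Adipoq, Plin1, Fabp4, Lep and Cfd) all had positive differences at involution (median 0.72), with sums from 4457 to 15385 FPKM in KO and from 3908 to 7654 FPKM in Con glands. Adipoq was 256, 441, 524 and 68.5 FPKM in KO glands, against 220, 170 and 58.4 FPKM in Con glands. Like Igfbp4 it was lowest in KO M44440 among KO glands and in Con M43914 among Con glands. Lep went the other way in its mean FPKM, 7.09 in KO and 8.24 in Con glands. Its highest value, 16.8 FPKM, belonged to Con M43914. The part of these cells in the values of the binding proteins was not tested. Beside Igfbp5, the luminal sums at involution overlapped and ran from 1265 to 2162 FPKM in KO and from 1326 to 1787 FPKM in Con glands. The 5 basal markers were Krt5, Krt14, Acta2, Myh11 and Oxtr. Their sums ran from 390 to 478 FPKM in KO and from 209 to 357 FPKM in Con glands at involution, with no overlap. Of the single markers only Myh11 had its groups apart, and 4 differences were positive and 1 was negative. The part of basal cells in the Igfbp5 values was not tested either.

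The other binding proteins overlapped between KO and Con glands at both stages. Igfbp2, one of the main IGF carriers in blood, was at involution 3.41, 5.33, 6.82 and 16.5 FPKM in KO glands, against 5.77, 3.91 and 5.002 FPKM in Con glands. The highest value belonged to KO M44440 and the groups overlapped (difference 0.45 ± 0.42, limma adjusted p = 0.968), and without that library the difference was 0.068. Igfbp6, which prefers IGF-2, was 48.6, 13.4, 29.0 and 16.0 FPKM in KO glands, against 32.6, 10.9 and 14.5 FPKM in Con glands at involution. KO M43196 was highest, and without it the difference was 0.11, against 0.45 ± 0.50 with it, and 0.90 without Con M44448. Igfbp3, the main IGF carrier of plasma, was 2.54, 5.71, 3.01 and 2.68 FPKM in KO glands, against 2.10, 2.82 and 7.27 FPKM in Con glands at involution. The values of both groups overlapped (difference -0.07 ± 0.36, limma adjusted p = 0.998). At lactation Igfbp2 had 8.40, 6.54 and 6.52 FPKM in KO glands, against 10.9, 4.46 and 5.67 FPKM in Con glands (difference 0.16 ± 0.32). Igfbp3 had 4.84, 1.92 and 4.64 FPKM in KO glands, against 3.17, 3.86 and 1.80 FPKM in Con glands (difference 0.30 ± 0.35). Igfbp6 had 7.07, 5.63 and 5.93 FPKM in KO glands, against 5.58, 4.50 and 6.59 FPKM in Con glands (difference 0.20 ± 0.20). None of the 3 had groups apart, and all had a limma adjusted p of 0.998. Leaving out Con M44175 moved Igfbp3 to 0.036, and leaving out Con M43768 moved Igfbp6 to 0.096.

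The makeup of the binding protein transcripts was described as the share of each gene in the summed FPKM of Igfbp2 to Igfbp7, which does not depend on the scale of a library. At involution Igfbp5 took 62.1%, 55.4%, 42.7% and 59.99% in the KO glands, against 78.8%, 86.1% and 79.9% in the Con glands. Every KO share lay below every Con share. The means were 55.0% ± 8.70 and 81.6% ± 3.94, a difference of -26.5 points with an exact two-sided permutation p of 0.0286, the smallest that 35 regroupings allow, and 0.229 after adjustment over the 12 shares. The share of Igfbp7 ran from 17.5% to 33.1% in KO and from 7.23% to 13.5% in Con glands, and that of Igfbp4 from 10.2% to 20.1% in KO and from 3.36% to 7.55% in Con glands. Their groups did not overlap, and each had an exact permutation p of 0.0571 and an adjusted p of 0.229. Since shares sum to a whole, a lower share of Igfbp5 raises those of the others. The summed FPKM of the binding proteins was 662 ± 130 in 4 KO glands and 1017 ± 180 in 3 Con glands. The highest KO sum, 820.5, lay just below the lowest Con sum, 823.5, and after rescaling by the library factors the groups overlapped (821.1 and 805 FPKM). At lactation Igfbp7 led with 54.2% ± 2.85 in KO and 52.5% ± 6.76 in Con glands, and Igfbp5 took 6.44% ± 1.26 in KO and 6.62% ± 2.53 in Con glands (exact permutation p = 1). The summed FPKM was then 73.0 ± 4.77 in 3 KO glands and 57.3 ± 3.33 in 3 Con glands, again without overlap. With 3 libraries against 3 the smallest exact p is 0.1, so no share at lactation could pass 0.05. After adjustment over the 12 shares none could pass at either stage, even with every involution share at its smallest p. The adjusted values therefore cannot decide whether a share differed.

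**Figure D3:**
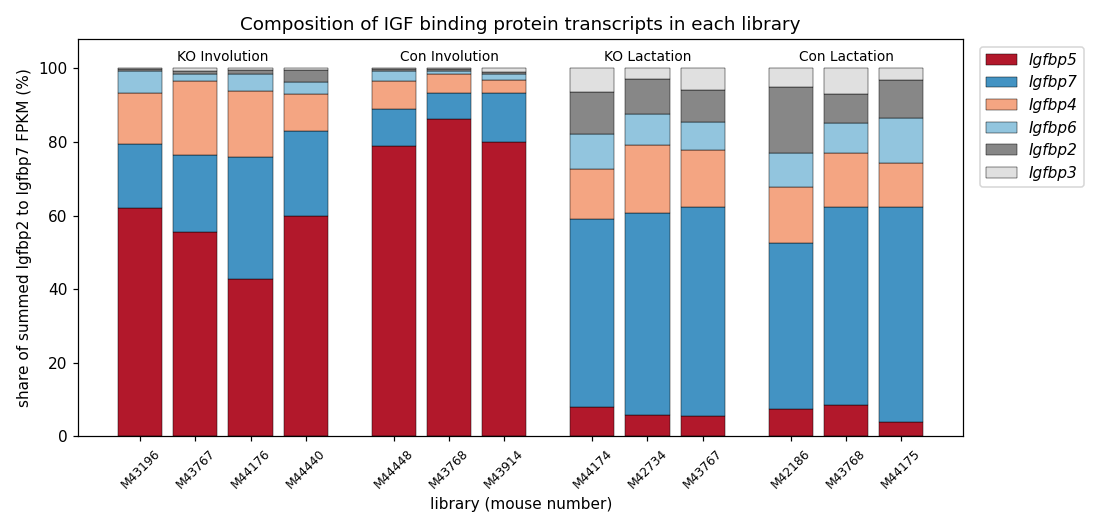
Share of each binding protein in the summed FPKM of Igfbp2 to Igfbp7, in percent, by library, with KO before Con within each stage. The Igfbp5 share at involution is 42.7% to 62.1% in KO and 78.8% to 86.1% in Con glands, and at lactation Igfbp7 leads in both.

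Of the ligands, Igf1 stood at lactation at 2.89, 1.37 and 4.53 FPKM in KO glands, against 11.6, 5.28 and 9.99 FPKM in Con glands. All 3 KO glands lay below all 3 Con glands, as they did for 3.17% of all genes tested. The means were 2.93 ± 1.58 FPKM in 3 KO glands and 8.97 ± 3.30 FPKM in 3 Con glands. The difference was -1.31 ± 0.38 on the log2 scale (95% confidence interval -2.20 to -0.42), with a limma adjusted p of 0.998. As a ratio of rescaled FPKM + 1 it was 0.403 (0.217 to 0.748), whereas the ratio of the mean FPKM was 0.327. The difference ranked 42 of 9560 genes by unadjusted p and was -1.25 without Con M44175. Stromal cells are known as the main source of Igf1 in the gland. At lactation the summed adipocyte markers overlapped, from 1367 to 2058 FPKM in KO and from 772 to 2606 FPKM in Con glands. All 5 adipocyte markers nevertheless had positive differences (median 0.77), and Plin1 lay between 7.52 and 12.0 FPKM in KO glands, above the 2.57 to 3.61 FPKM in Con glands (limma adjusted p = 0.644). The fibroblast sums, given above, overlapped too, with the highest value in a KO gland and the lowest in a Con gland. The luminal sums, mostly Elf5, ran from 464 to 539 FPKM in KO and from 547 to 590 FPKM in Con glands as deposited and overlapped after rescaling, and no single marker of the 5 was apart. The part of these cells in the Igf1 values was not tested.

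At involution Igf1 had 6.72, 9.57, 11.04 and 3.18 FPKM in KO glands, against 6.68, 3.06 and 6.02 FPKM in Con glands. The groups overlapped, with KO M44440 and Con M43768 the lowest, and the difference was 0.43 ± 0.39 on the log2 scale (95% confidence interval -0.47 to 1.33, limma adjusted p = 0.963). It was 0.14 without Con M43768 and 0.75 without KO M44440. The difference of the KO effect between the stages was 1.74 ± 0.60 on the log2 scale (95% confidence interval 0.43 to 3.05, limma adjusted p = 0.999). RefSeq lists another gene, Igf1os, over Igf1. The promoter window of Igf1 is shown because it had the largest KO difference at lactation. It is chr10:87860861-87861110, plus strand, from RefSeq (GRCm38.p6), with none of the motifs matched.
Igf1: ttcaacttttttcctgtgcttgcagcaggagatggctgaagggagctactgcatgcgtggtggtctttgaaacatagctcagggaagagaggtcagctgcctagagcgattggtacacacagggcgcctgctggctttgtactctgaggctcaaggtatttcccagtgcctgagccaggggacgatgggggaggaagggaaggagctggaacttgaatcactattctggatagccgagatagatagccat

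Igf2, a fetal growth factor that is imprinted, was low, at 1.0996, 0.984, 1.71 and 0.838 FPKM in KO glands, against 1.41, 0.675 and 0.837 FPKM in Con glands at involution. The groups overlapped (difference 0.14 ± 0.20, limma adjusted p = 0.990), and Mir483 and Igf2os overlap it. The highest Igf2 values at involution belonged to KO M44176 and then to Con M44448. These had the highest summed skeletal muscle markers there, 3344 and 849 FPKM. KO M43196 followed in Igf2, with the lowest muscle sum at involution, 4.06 FPKM. H19, an imprinted neighbour of Igf2 that muscle also transcribes, was 48.9 FPKM in KO M44176 and 21.2 FPKM in Con M44448. It was 15.1 FPKM in KO M43767, whose muscle sum was 388, and between 0.938 and 4.49 FPKM in the other 4 involution glands. At lactation KO M44174 had the highest muscle sum, 680 FPKM, and the lowest Igf2 of the KO glands, 0.293 FPKM. KO M43767 had the lowest muscle sum at that stage, 0.514 FPKM, and the highest Igf2, 0.507 FPKM. The part of muscle in these values was not tested.

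Igf1r, the receptor for IGF-1, was 0.925, 1.57, 1.33 and 1.03 FPKM in KO glands, against 1.64, 1.28 and 0.985 FPKM in Con glands at involution. The groups overlapped, with a difference of -0.04 ± 0.18 on the log2 scale (limma adjusted p = 0.998). Igf2r, which clears IGF-2, was 9.69, 10.6, 15.9 and 13.9 FPKM in KO glands, against 13.4, 15.7 and 28.2 FPKM in Con glands at involution. Con M43914 was the highest, and the difference was -0.50 ± 0.27 (95% confidence interval -1.12 to 0.13, limma adjusted p = 0.883), and -0.21 without that library. At lactation Igf2r was 7.37, 6.02 and 7.25 FPKM in KO glands, against 9.17, 7.87 and 3.84 FPKM in Con glands. The lowest was Con M44175, and the groups overlapped. The antisense gene Airn overlaps Igf2r, and the sources used here do not say whether counting used the strand.

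The wider pathway was summarised over 43 genes of 6 lists: proteases, other genes with an IGFBP domain, the growth hormone axis, receptor adaptors, PI3 kinase and AKT, and binders of the Igf2 messenger. At involution 34 were tested, 18 with positive and 16 with negative differences (median 0.01, against 0.01 over all genes), and 0 were called. At lactation 29 were tested, 20 positive and 9 negative (median 0.11), and 0 were called. Igfals encodes the acid-labile subunit that stabilises IGF complexes in plasma. It lay between 23.8 and 42.9 FPKM in KO glands and between 44.1 and 69.7 FPKM in Con glands at involution, with no overlap (difference -0.68 ± 0.25, limma adjusted p = 0.652). Stc1, an inhibitor of a protease that cleaves IGFBPs, averaged 1.36 ± 0.380 FPKM in KO and 2.41 ± 0.406 FPKM in Con glands (difference -0.53 ± 0.19, limma adjusted p = 0.620). Grb14, an adaptor that restrains insulin receptor signalling, averaged 4.36 ± 0.742 FPKM in KO and 2.39 ± 1.18 FPKM in Con glands (difference 0.74 ± 0.27, limma adjusted p = 0.639). Pik3r1, a regulatory subunit of PI3 kinase, averaged 83.6 ± 14.0 FPKM in KO and 120 ± 31.5 FPKM in Con glands, with an adjusted p of 0.790 by limma. Among the 18 genes of PI3 kinase and AKT, 8 differences were positive and 10 were negative. At lactation Htra1, a secreted serine protease, averaged 7.19 ± 0.420 FPKM in KO and 3.70 ± 1.44 FPKM in Con glands, and its difference of 0.89 ± 0.26 was not called either. Kazald1, another gene with an IGFBP domain, averaged 2.26 FPKM in KO and 2.22 FPKM in Con glands at involution (difference 0.04 ± 0.17, limma adjusted p = 0.998). Igfbp1, a binding protein made mainly in liver, was listed at 0 in 12 of the 13 libraries.

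**Figure D4:**
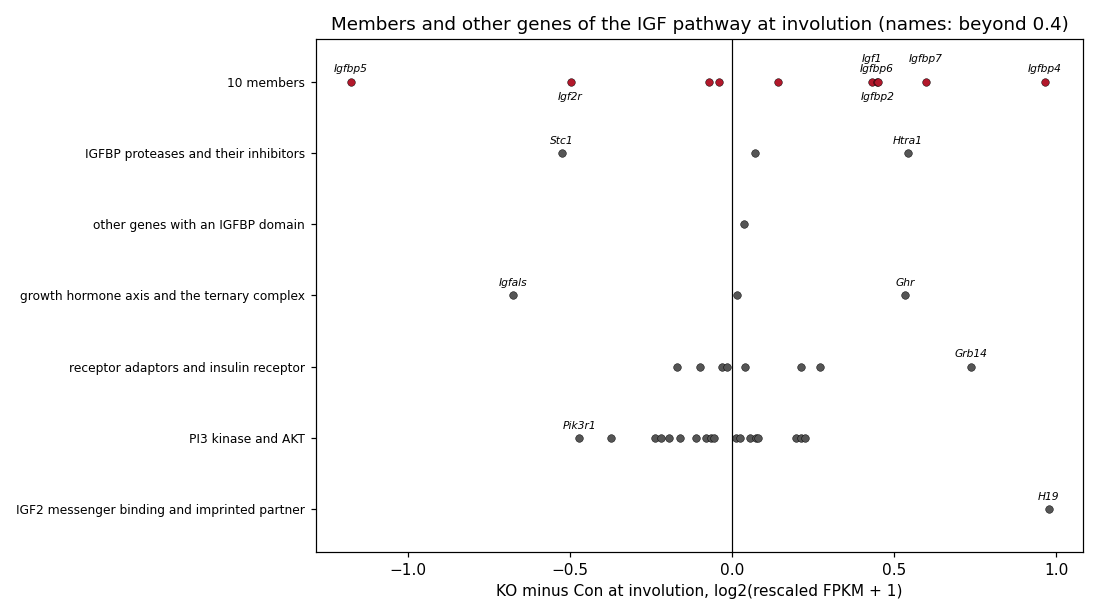
Difference of log2(rescaled FPKM + 1), KO minus Con, at involution for the IGF axis genes and the genes of the wider pathway, grouped by list. The median over the 34 wider pathway genes tested at involution was 0.01, and none was called.

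The 5 genes whose log2 values, centred within each stage, followed Igfbp5 most closely over 13 libraries were Knop1, Camkk2, Galnt7, Gadd45a and Ttc7, with Pearson r of 0.892, 0.891, 0.889, 0.888 and 0.883 among 12667 genes. All 5 had every KO gland below every Con gland at involution, against 4.42% of all genes tested. They were picked for following Igfbp5 over libraries that include its own group difference, so that count is not a separate result. Gadd45a, a stress-response gene, averaged 19.7 ± 2.11 FPKM in KO and 30.9 ± 5.37 FPKM in Con glands at involution. None of the 5 was called by limma, with adjusted p between 0.360 and 0.586.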

How the data were processed

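Per the labels' protocols, total RNA of flash-frozen mammary glands was purified with RNeasy Mini, made into TruSeq RNA libraries and sequenced on an Illumina HiSeq. Each of the 2 tables holds FPKM as the authors deposited them, for 13 libraries. Per the submitters' processing notes, reads passed through CASAVA, cutadapt and TopHat, on mouse genome mm9. The sources used here do not name the program behind the FPKM, its annotation or its scaling. FPKM were rescaled within each table by median-of-ratios factors and tested as log2(FPKM + 1) with limma 3.58.1 in R 4.3.3 (lmFit, eBayes with trend) on genes that reached 1 FPKM in 3 or more libraries, two-sided, with Benjamini-Hochberg adjustment and a threshold of 0.05. No covariates were used. The fits were tested on simulated data with known changes. Those changes were larger than any difference of the IGF axis genes and were set only in genes of higher FPKM. Recovery of smaller changes was not tested. Shares were tested by exact permutation in Python 3.11.15. Libraries within a stage carry separate mouse numbers. Alternatives changed the scaling, the pseudocount, the filter, the weights and the libraries, and their effect is given at the close. No fragment counts are given, so the depth is known only as relative steps of low FPKM, and no counting intervals are printed. The genes and lists were chosen with earlier results of these data known. Named genes were the 10 members, the gene of each list with the smallest p at involution, and the 5 most like Igfbp5. Htra1, Igfbp1 and the named single markers were chosen after their values were seen. The joint fit of both stages treats the 13 libraries as separate, although 2 mouse numbers stand at both stages, and the sources used here do not say whether these were the same animals.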

Additional observations from a re-analysis of the deposited data

Results flagged for a closer look

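Within the KO glands at involution, Igfbp3 had 5.71 FPKM in M43767, against 2.54 to 3.01 FPKM in the other 3 glands. The gap from M43767 to the nearest other gland was 0.852 of the range of the group, above the limit set for 4 samples, and chance alone marks about 1 group in 20 this way.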

How the results depend on the processing

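The count of IGF axis genes called was 0 under each of 13 alternatives at involution, 12 at lactation and 20 for the difference between stages. Of 28 gene differences, 16 kept their sign in all alternatives that gave a value. Igfbp5 at involution ran from -1.35 to -1.04 on the log2 scale, with limma adjusted p from 0.189 to 0.937. Igf1 at lactation ran from -1.62 to -0.83, with limma adjusted p from 0.323 to 1. The Igfbp5 share at involution differed by -28.9 to -19.2 points, with exact permutation p from 0.0286 to 0.1. Without 1 KO library, 0.1 is the smallest p that the regroupings allow. The others changed sign somewhere, and the cause was not tested. With array weights the log2 differences were -0.068 (Igfbp3), -0.057 (Igfbp5) and -0.16 (Igf2r) at lactation, 0.19 (Igfbp3) at involution, and 0.25 (Igfbp3) and -0.011 (Igf2) between stages. Between stages Igf2 was -0.028 with quantile normalization and -0.074 with a pseudocount of 0.1. With the share taken over Igfbp2 to Igfbp6, the lactation shares differed by 0.398 points (Igfbp3) and 0.197 points (Igfbp5). Leaving out 1 library at a time gave these ranges. At lactation they were -0.065 to 0.52 for Igfbp2, -0.0011 to 0.50 for Igfbp5 and -0.26 to 0.35 for Igf2r. At involution they were -0.34 to 0.34 for Igfbp3 and -0.15 to 0.072 for Igf1r. Between stages they were -0.076 to 0.11 for Igf2, -0.088 to 0.57 for Igfbp2, -0.70 to 0.041 for Igfbp3, -0.0098 to 0.85 for Igfbp4, -0.093 to 0.70 for Igfbp6 and -0.066 to 0.29 for Igfbp7. Share differences in points ran from -0.0418 to 0.311 for Igfbp3 at involution, and at lactation from -4.25 to 0.653 for Igfbp2, -0.926 to 1.14 for Igfbp3, -1.61 to 0.802 for Igfbp5 and -1.92 to 4.74 for Igfbp7. Igf2 gave no value in 3 alternatives, where it was below the filter. Within a stage, no paired analysis was possible because KO and Con glands share no mouse number. Between stages, a replicate block by mouse number, chosen after seeing the data, used the 2 numbers at both stages through limma's estimated correlation of 0.697. It gave -1.33 for Igfbp5 and 1.68 for Igf1 (adjusted p of 0.205 and 0.2098), 0.049 for Igfbp3 and -0.018 for Igf2, and called 20 of all genes, against 10 without the block. The 95% confidence interval of Igfbp4 at involution, -0.09 to 2.01 on the log2 scale, shows the width that 3 or 4 libraries a group gave.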
